A study of Mus musculus with 6 samples.

Results

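In mouse prefrontal cortex, 9 genes of a pair of calcium-handling families were followed. They are 4 genes of canonical transient receptor potential (TRPC) channels, Trpc1, Trpc4, Trpc5 and Trpc6, and 5 genes of neuronal calcium sensor proteins, Hpca, Hpcal1, Hpcal4, Ncald and Ncs1. They are 9 of 45470 genes named in the count table, and all 9 were among the 15398 genes with enough counts to be tested. Trpc6 and Hpca were chosen by their higher values in the duplication libraries, so their values are given as a description with no test. The other 7 genes were taken because they are relatives of that pair, and the question was whether they follow it.

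The tissue was prefrontal cortex homogenate from mice at postnatal week 8. There were 3 libraries of wild type mice and 3 of mice carrying the 16p11.2 duplication in heterozygous form, with the extra segment on chromosome 7. The line came from a C57BL/6N and 129Sv hybrid and had been backcrossed for 10 generations onto C57BL/6, the background on which both groups were kept. None of the 9 genes lies on chromosome 7. Whether the libraries came from different animals is not stated in the labels. Sex-linked counts, given below, differed within each group, so not all libraries of a group came from the same animal. How many animals there were is not known, and p-values reflect only how these samples vary, which may be technical in part.

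TRPC proteins are non-selective cation channels that let calcium into the cell after receptors coupled to the G protein Gq, or receptor tyrosine kinases, activate phospholipase C. TRPC6, like TRPC7, is opened by diacylglycerol, and TRPC1 assembles with TRPC4 and TRPC5 in neurons. Neuronal calcium sensors are small EF-hand proteins with a fatty acid, myristate, on their N-terminal glycine. On binding calcium, hippocalcin exposes this group and moves to membranes, where the family acts on channels, kinases and membrane traffic.

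Short stretches of coding sequence show what defines each family, and are given here so that the relatives can be compared base by base. They were read from GENCODE M21 transcripts (GRCm38) of the principal isoform, from 5′ to 3′. In the channels the capitals mark the codons of the TRP box, the conserved motif that follows the last membrane segment.
Trpc6: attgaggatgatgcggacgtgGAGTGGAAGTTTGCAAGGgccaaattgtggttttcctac
Trpc1: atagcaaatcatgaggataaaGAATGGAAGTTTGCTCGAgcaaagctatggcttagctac
Trpc4: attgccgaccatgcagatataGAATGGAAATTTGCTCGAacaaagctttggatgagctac
Trpc5: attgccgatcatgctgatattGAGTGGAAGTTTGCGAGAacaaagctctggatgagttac

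The 4 boxes encode the same peptide with different codons. Over the 60 bases shown, Trpc6 differed from Trpc1 at 21, from Trpc4 at 22 and from Trpc5 at 19, while Trpc4 and Trpc5 differed at 9. Over the aligned coding sequences Trpc4 and Trpc5 were 71.3% identical, and Trpc6 was 60.7% to 65.2% identical to the other 3. In the calcium sensors the first 60 coding bases are shown, with the start codon and the glycine codon that receives myristate in capitals.
Hpca: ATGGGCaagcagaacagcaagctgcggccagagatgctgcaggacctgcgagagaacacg
Hpcal1: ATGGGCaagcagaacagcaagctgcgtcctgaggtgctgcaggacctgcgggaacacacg
Hpcal4: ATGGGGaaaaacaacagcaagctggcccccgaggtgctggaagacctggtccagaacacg
Ncald: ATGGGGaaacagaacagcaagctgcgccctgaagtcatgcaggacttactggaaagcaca
Ncs1: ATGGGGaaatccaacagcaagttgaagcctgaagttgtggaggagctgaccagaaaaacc

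All 5 begin with the glycine codon. Hpca and Hpcal1 differed at 6 of the 60 bases and were 86.1% identical over the whole coding sequence, the highest of the 10 pairs. Ncs1 was the most distant, at 64.2% to 66.0% identity to the others. Reads could be shared only in small part: no stretch of 50 bases of Trpc4, Hpcal4 or Ncs1 transcripts occurs in another gene, and for the other 6 genes 0.134% to 6.5% of such stretches do, with Trpc6 at 3.79% and Hpcal1 at 6.5%.

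Total counts were 12988457 to 14369271 in wild type and 14891890 to 21872271 in duplication libraries, so every duplication library was the deeper, and depth and genotype cannot be told apart. The libraries also differed within groups. Libraries numbered 1 had Y-linked counts and no Xist, and those numbered 3 had Xist and almost no Y-linked counts. Both libraries numbered 2 had Xist together with Y-linked counts at 6.09% (wild type) and 6.04% (duplication) of the male level. Wild type replicate 2 also lay at 4.04 on the first principal component, apart from the other wild type libraries at -27.2 and -26.7. Mapk3, a gene of the duplicated segment that encodes ERK1, was 1.5-fold higher in the duplication group (69.7 ± 4.9 against 104.8 ± 18.8 CPM, the counts-per-million scale; mean ± SD, n = 3 per group), which follows the labels.

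Markers of neurons were abundant. All 6 were measured, and their sum ran from 5901 to 6509 CPM in the wild type and from 6038 to 6354 CPM in the duplication libraries. Markers of striatal projection neurons were also present, at 192 to 227 CPM and 189 to 209 CPM. Markers of choroid plexus summed to at most 4.38 CPM in any library. In a homogenate, fewer cells of a type and less RNA per cell cannot be told apart.

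The channel gene Trpc6 (chromosome 9, 8544142 to 8680741, plus strand of GRCm38, ENSMUSG00000031997) was one of the pair chosen for its difference. Its wild type libraries stood at 46.1, 42.2 and 43.2 CPM and its duplication libraries at 64.7, 59.3 and 58.3 CPM, here and below in the order of replicates 1 to 3. The groups did not overlap, and the lowest duplication library lay 12.2 CPM above the highest wild type library. On the log2 scale the difference was 0.47, a fold of 1.39. It was 0.47 without both libraries numbered 2, in a subset of the libraries on which the gene was chosen.

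Hpca (chromosome 4, 129111570 to 129122036, minus strand, ENSMUSG00000028785), which encodes hippocalcin, a sensor that links calcium to the slow afterhyperpolarization of pyramidal neurons, was the other chosen gene. Its levels were 305, 315 and 291 CPM in wild type and 383, 382 and 370.3 CPM in duplication libraries. Within each group the libraries lay close together, with standard deviations of 11.8 and 6.88 CPM, and the groups were 55.6 CPM apart at their nearest points. The log2 fold change was 0.32, and 0.34 without both libraries numbered 2, again among libraries on which the gene was chosen.

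Beside Hpca, which hippocampal neurons express strongly, 7 markers of hippocampal granule and pyramidal neurons summed to 13.3 to 18.2 CPM in wild type libraries and 13.6 to 19.4 CPM in duplication libraries. Of the 5 that were tested, 4 were above 0 and 1 below, with a median log2 fold change of 0.17. In 2 of the 5 all duplication libraries lay above all wild type libraries, against 11.7% of all genes tested. Fibcd1 was higher without overlap, with 3.84 ± 0.09 and 5.66 ± 0.67 CPM (mean ± SD, n = 3 per group), and so was Spink8, with 0.549 ± 0.220 and 1.29 ± 0.21 CPM; both had an edgeR adjusted p of 0.174. Prox1 was at 8.41 ± 2.25 and 6.42 ± 1.80 CPM, with groups that overlapped. Tdo2 and Lct, at log2 fold changes of 0.03 and 0.17, also had groups that overlapped. Dsp and C1ql2 had 10 and 17 counts in all libraries together. The part of these cells in the value of Hpca was not tested.

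**Figure D1:**
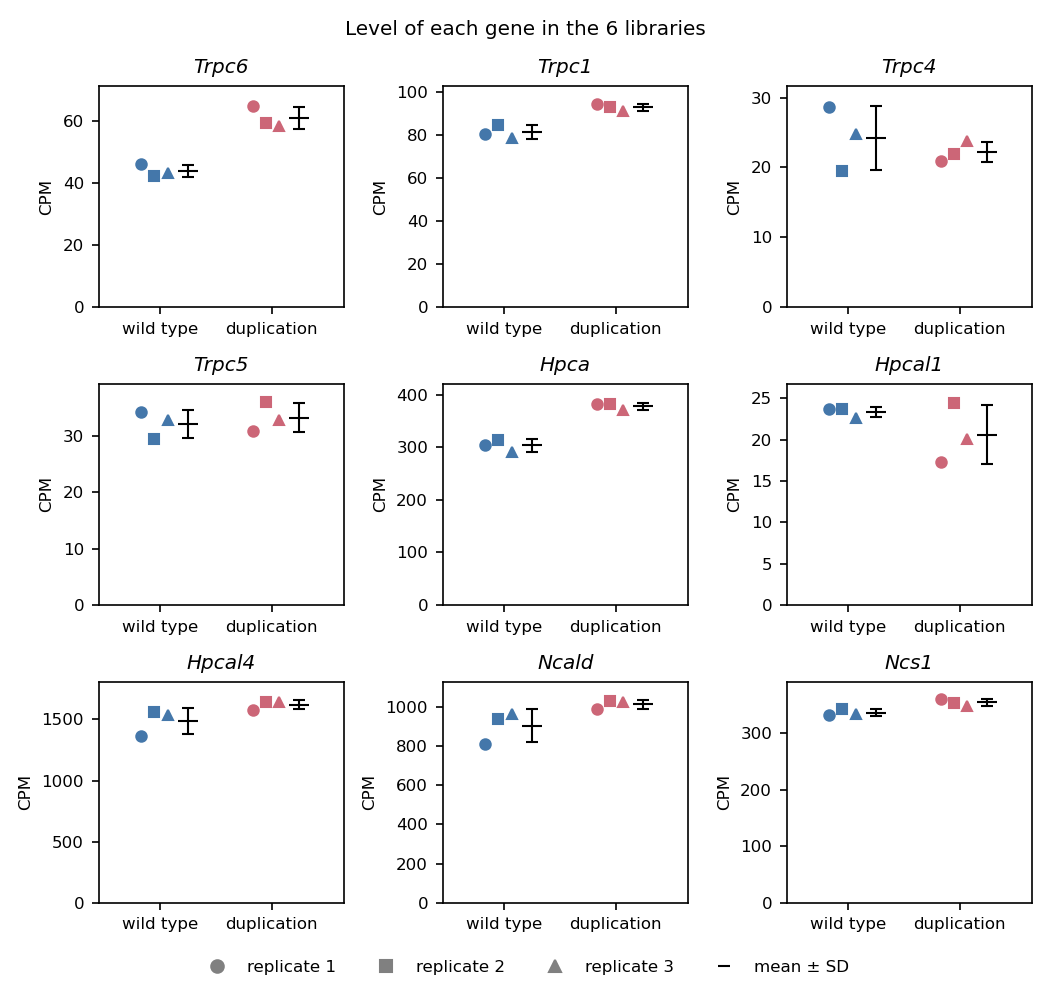
Level in CPM (linear axis from 0) of the 9 genes in each library, wild type in blue and duplication in red, with marker shapes for replicates 1 to 3 and the mean ± SD in black. In Trpc6, Trpc1, Hpca, Hpcal4, Ncald and Ncs1 every duplication library lies above every wild type library, while Trpc4, Trpc5 and Hpcal1 overlap.

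The relatives did not all separate the groups. Of the 7 relatives, 0 passed the edgeR quasi-likelihood test with Benjamini-Hochberg adjustment over all genes, where 0 of 15398 genes (0%) passed with 0.129 as the lowest adjusted p. In 4 of 7 relatives, Trpc1, Hpcal4, Ncald and Ncs1, all duplication libraries lay above all wild type libraries, against 11.7% of all genes tested. In 0 of 7 they all lay below, against 10.5% of all genes tested. At an unadjusted edgeR p under 0.05, 2 of 7, Trpc1 and Ncald, were higher and 0 lower. Over all genes 7.05% were higher at this threshold, and 1877 of 15398 were lower. The median log2 fold change of the 7 was 0.08, beside 0.005 over all genes tested, and 5 were above 0 and 2 below. These counts are a description, since the families were picked with the results known.

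Trpc1 was the channel relative that was higher without overlap. TRPC1 is a subunit that modifies channels formed with TRPC4 or TRPC5. Trpc1 (chromosome 9, 95705082 to 95750375, minus strand, ENSMUSG00000032839) stood at 80.8, 85.0 and 78.8 CPM in wild type and at 94.4, 93.2 and 91.4 CPM in duplication libraries. The groups were 6.35 CPM apart at their nearest points, and the standard deviations were 3.16 and 1.53 CPM. The log2 fold change was 0.19 ± 0.06 (SE), with a 95% interval of 0.05 to 0.32 and an edgeR adjusted p of 0.175. Without wild type replicate 2 it passed over all genes, at 0.22 and an edgeR adjusted p of 0.0322, the lowest of a range of 0.0322 to 0.490 over the alternatives. In that fit 15.3% of all genes passed.

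Trpc4 and Trpc5, which form receptor-operated channels of pyramidal neurons, did not separate the groups. Wild type libraries held Trpc4 (chromosome 3, 54156035 to 54318471, plus strand) at 28.6, 19.5 and 24.8 CPM and duplication libraries at 20.9, 21.9 and 23.8 CPM. The wild type libraries themselves spanned the duplication libraries, with replicate 2 the lowest of all 6. Its log2 fold change was -0.13 ± 0.13 (SE), with a 95% interval of -0.42 to 0.17 and an edgeR adjusted p of 0.609, and it was 0.0037 without wild type replicate 1 and -0.27 without wild type replicate 2.

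For Trpc5 (X chromosome, 144381671 to 144688180, minus strand) the wild type values were 34.2, 29.4 and 32.8 CPM and the duplication values 30.8, 36.0 and 32.9 CPM. Its log2 fold change was 0.05 ± 0.09 (SE), with a 95% interval of -0.15 to 0.25 and an edgeR adjusted p of 0.802. Trpc5 turned to -0.018 without wild type replicate 2 and to -0.012 without duplication replicate 2.

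Of the remaining channel genes of the family, Trpc7, a diacylglycerol-opened relative of Trpc6, was low, at 3.77 ± 1.05 CPM in wild type libraries and 3.59 ± 0.48 CPM in duplication libraries (mean ± SD, n = 3 per group). Its log2 fold change was -0.08 ± 0.22 (SE), its groups overlapped and it did not pass (edgeR adjusted p of 0.860). Trpc2, a channel of the vomeronasal organ, had 0 counts in all 6 libraries.

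Among the calcium sensors, Ncald, Hpcal4 and Ncs1 were higher without overlap, by small steps. Ncald encodes neurocalcin delta, a sensor of neuronal membranes and clathrin-coated vesicles. Ncald (chromosome 15, 37366175 to 37792570, minus strand) stood at 809, 938 and 964 CPM in wild type libraries, and duplication libraries had 988, 1027 and 1022 CPM. Wild type replicate 1 was the lowest, and the nearest points of the groups were 24.3 CPM apart, less than the wild type standard deviation of 82.9 CPM. On the log2 scale the difference was 0.16 ± 0.07 (SE), with a 95% interval of 0.001 to 0.33 and an edgeR adjusted p of 0.257. Without wild type replicate 1 it was 0.09, with an unadjusted edgeR p of 0.133.

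Hpcal4 (chromosome 4, 123183227 to 123194701, plus strand), which encodes a hippocalcin-like sensor of brain, had wild type levels of 1362, 1562 and 1534 CPM and duplication levels of 1578, 1645 and 1644 CPM. The nearest libraries were 15.8 CPM apart, again less than the wild type standard deviation of 108 CPM. The log2 fold change was 0.13 ± 0.06 (SE), with a 95% interval of -0.02 to 0.27 and an edgeR adjusted p of 0.313. Without wild type replicate 1 it was 0.07.

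Ncs1 (chromosome 2, 31245823 to 31295989, plus strand) encodes neuronal calcium sensor 1, the ancestral member of the family, which acts on phosphatidylinositol 4-kinase and dopamine receptors. Its wild type levels were 333, 343 and 333 CPM, and its duplication levels were 361, 354 and 349 CPM. The step of 6.13 CPM between the groups was close to the standard deviations of 5.61 and 5.96 CPM. On the log2 scale the difference was 0.08 ± 0.05 (SE), with a 95% interval of -0.04 to 0.19 and an edgeR adjusted p of 0.440.

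Hpcal1, which is closest to Hpca in sequence, did not separate the groups. Hpcal1 (chromosome 12, 17690856 to 17791933, plus strand) encodes a hippocalcin-like sensor also called VILIP-3. Its wild type levels were 23.7, 23.7 and 22.6 CPM, and its duplication levels were 17.3, 24.4 and 20.1 CPM. Duplication replicate 2 was the highest of all 6 libraries and replicates 1 and 3 were the lowest. The log2 fold change was -0.19 ± 0.12 (SE), with a 95% interval of -0.46 to 0.09 and an edgeR adjusted p of 0.413. It was -0.07 without duplication replicate 1, -0.32 without duplication replicate 2 and -0.31 without both libraries numbered 2, and its edgeR adjusted p ran from 0.137 to 0.803 over the alternatives. Trpc4 and Hpcal1, the relatives below 0, had the lowest levels of the followed channels and sensors, respectively.

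**Figure D2:**
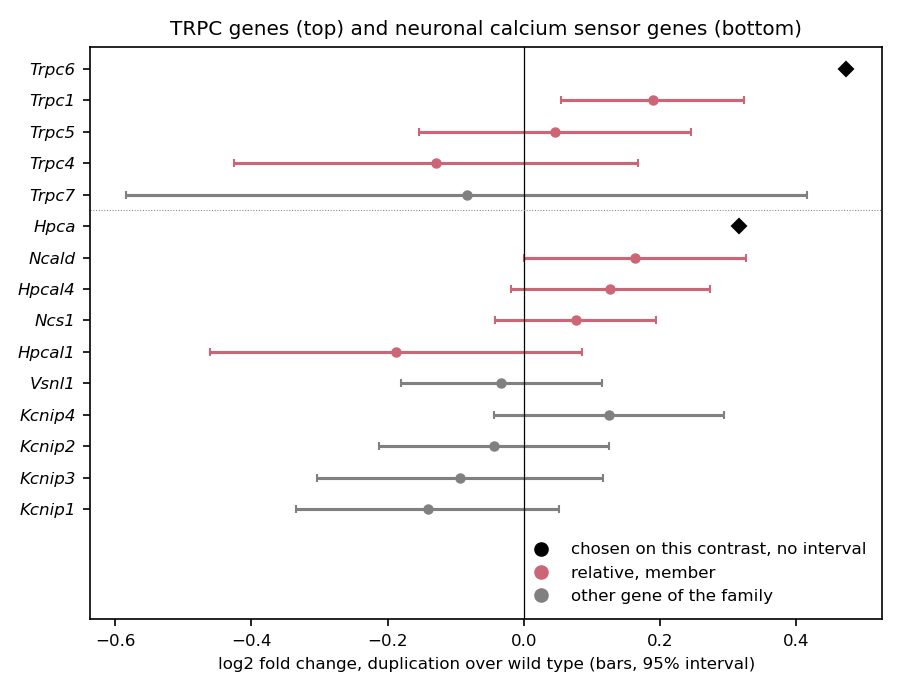
Log2 fold change of duplication over wild type for the TRPC genes (above the dotted line) and neuronal calcium sensor genes (below it), with 95% intervals from the edgeR fit. Black diamonds are Trpc6 and Hpca, chosen on this contrast and drawn with no interval, red points are the 7 relatives and grey points other genes of the families. Trpc1 and Ncald have intervals above 0, and every other relative's interval holds 0.

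The remaining calcium sensor genes went both ways. Vsnl1, which encodes visinin-like 1, was at 418 ± 30.5 CPM in wild type libraries and 408 ± 6.9 CPM in duplication libraries, a log2 fold change of -0.03 ± 0.07 (SE). The Kv4 channel-interacting proteins, which set the surface level and gating of A-type potassium channels, were at -0.14 (Kcnip1), -0.04 (Kcnip2), -0.09 (Kcnip3) and 0.13 (Kcnip4) on the log2 scale, and 0 of these 5 genes passed. Kcnip4 was higher without overlap, with 67.7 to 79.7 CPM in wild type libraries and 80.0 to 84.7 CPM in duplication libraries, and Kcnip1 was lower without overlap. The photoreceptor genes Rcvrn, Guca1a and Guca1b had 15, 9 and 19 counts in all libraries together and were not tested.

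Set side by side per kilobase of exon, the sensors exceeded the channels. The wild type level was 278 ± 20.3 CPM per kb for Hpcal4, 105 ± 9.7 for Ncald, 104 ± 4.0 for Hpca and 72.3 ± 1.2 for Ncs1 (mean ± SD, n = 3). It was 13.8 ± 0.36 CPM per kb for Hpcal1, 10.2 ± 0.39 for Trpc1, 8.65 ± 0.41 for Trpc6, 6.41 ± 0.50 for Trpc5 and 3.02 ± 0.57 for Trpc4. In wild type libraries the neighbours Ncald and Hpca did not differ beyond their spread, and the other neighbours did. In duplication libraries Hpca was at 129 ± 2.4 and Ncald at 118 ± 2.5 CPM per kb, and Trpc6 at 12 ± 0.68, Hpcal1 at 12.2 ± 2.1 and Trpc1 at 11.6 ± 0.19 lay within their spread of each other. Exon lengths are the union of GENCODE M21 exons, which need not be those the authors counted.

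Trpc6 took a larger share of the summed level of the 4 channels in duplication libraries. Per kilobase it made up 30.8%, 30.6% and 30.5% of that sum in wild type and 38.4%, 35.2% and 35.5% in duplication libraries. The share of Trpc1 was 36.0% ± 2.6 and 35.1% ± 0.19 (SD, n = 3 per group), that of Trpc5 22.7% ± 1.0 and 20.1% ± 1.6, and that of Trpc4 10.7% ± 1.6 and 8.39% ± 0.68. Among the 5 sensors the share of Hpca was 18.2% ± 1.2 and 20.2% ± 0.52, and that of Hpcal1 2.41% ± 0.16 and 1.90% ± 0.30. These shares hold the chosen genes and so carry no test.

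**Figure D3:**
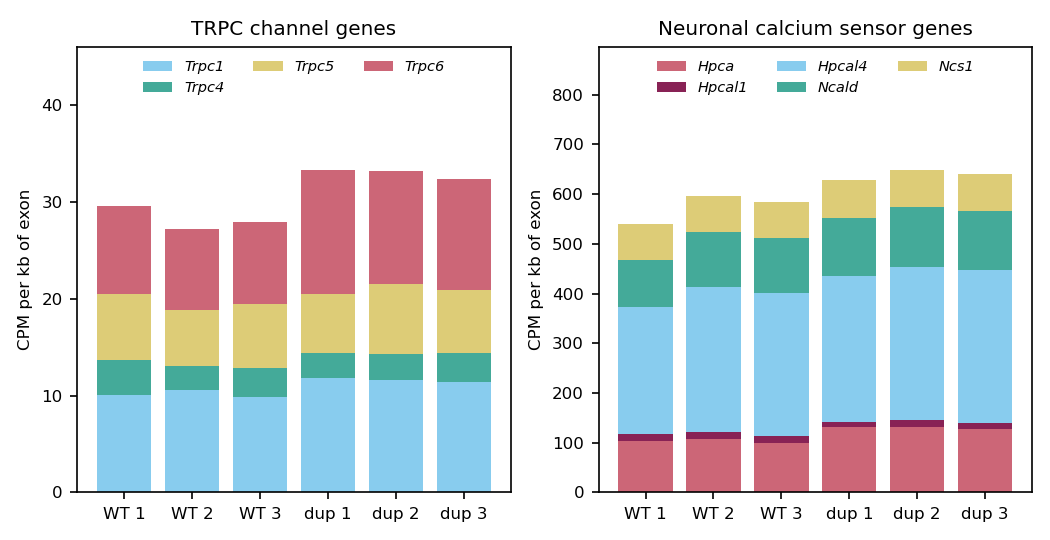
Level per kilobase of exon (CPM per kb, linear axis from 0), stacked over the 4 TRPC genes (left) and the 5 neuronal calcium sensor genes (right), 1 bar per library. The sums run from 27.2 to 29.6 in wild type and 32.4 to 33.3 in duplication libraries for the channels, and from 539 to 597 and 629 to 649 for the sensors.

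The genes whose levels followed Trpc6 most closely over the 6 libraries, by Pearson's r of log2 CPM, were Flnc (0.9895), Emx2 (0.9883), Lypla1 (0.9883), Smim17 (0.9871) and Wee1 (0.9854). For Hpca they were Fam169a (0.9982), Dmtn (0.9933), Enoph1 (0.9931), Tcta (0.9905) and Rab2a (0.9903). With 6 libraries, 66 genes had r over 0.95 with Trpc6 and 177 with Hpca, and all points share the genotype step and the library scaling, so these values are a description. Hpca itself had r of 0.952 with Trpc6. Among the relatives r with Trpc6 was 0.909 for Trpc1, 0.242 for Trpc5 and -0.227 for Trpc4.

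Promoters of Trpc6, Trpc1 and Hpca are shown because these genes were higher together. RefSeq sequences of GRCm38.p6 were found for 8 of the 9 genes, and the 250 bases before the RefSeq start are given from 5′ to 3′ on the gene's strand. This start need not be that of the GENCODE gene. The windows of Hpca and Hpcal4 lie inside the GENCODE spans given above, and those of Trpc1, Trpc4 and Ncs1 overlap them in part. Capitals mark TCGTG, the core bound by NPAS4 with its ARNT partners, and TGACG, the short form of the cyclic AMP response element, on either strand. The motifs overlap by 2 bases where both occur in Trpc6.
Trpc6, chr9:8543892-8544141: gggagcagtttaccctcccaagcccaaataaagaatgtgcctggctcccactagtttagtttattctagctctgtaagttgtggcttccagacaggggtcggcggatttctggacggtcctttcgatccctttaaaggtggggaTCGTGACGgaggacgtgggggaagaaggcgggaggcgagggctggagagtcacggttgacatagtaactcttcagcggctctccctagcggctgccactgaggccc
Trpc1, chr9:95750349-95750598: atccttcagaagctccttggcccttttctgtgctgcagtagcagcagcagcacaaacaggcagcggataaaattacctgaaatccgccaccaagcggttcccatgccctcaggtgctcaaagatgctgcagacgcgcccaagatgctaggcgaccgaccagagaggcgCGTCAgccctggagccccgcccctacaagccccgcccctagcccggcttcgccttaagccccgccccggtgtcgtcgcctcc
Hpca, chr4:129121748-129121997: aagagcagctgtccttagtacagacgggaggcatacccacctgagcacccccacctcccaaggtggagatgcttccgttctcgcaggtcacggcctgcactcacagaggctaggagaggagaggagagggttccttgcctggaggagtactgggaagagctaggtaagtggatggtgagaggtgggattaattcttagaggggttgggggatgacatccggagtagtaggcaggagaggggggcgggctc

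The TCGTG core occurred in 2 of the 8 promoters, Trpc6 and Hpcal4, and in 13.6% of 27025 promoters of this length. TGACG occurred in 2 of 8, Trpc6 and Trpc1, and in 17.9% of all. The binding site of EGR factors, GCGTGGGCG, was in 0 of 8 and in 0.54% of all. The GC box, GGGCGG, was in 6 of 8, all but Trpc6 and Trpc5, and in 32.9% of all, and TATAAA was in 1, Trpc4, and in 13% of all. The 8 promoters held 54.4% to 75.6% G and C, beside a median of 52.0% over all, and the part of base composition in these counts was not tested. These are matches of letters, and the promoter windows of Trpc6 and Hpca share none of the 5 motifs.

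Genes that act upstream of TRPC channels showed no passing change. Of 14 genes of Gq-coupled receptors, G proteins, phospholipase C and the BDNF receptor, 0 passed, 6 were above 0 and 8 below, and the median log2 fold change was -0.03. The most abundant were Ntrk2, the BDNF receptor, at -0.15 ± 0.07 (SE), Plcb1 at -0.06 ± 0.06, the metabotropic glutamate receptor gene Grm5 at 0.03 ± 0.06 and Gnaq, the Gq alpha subunit, at -0.20 ± 0.09.

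Of 15 genes of store-operated entry, IP3 receptors and channel scaffolds, 0 passed, 12 were above 0 and 3 below, with a median of 0.06. Among the most abundant, the IP3 receptor gene Itpr1 was at 0.02 ± 0.06, the scaffold gene Homer1 at 0.03 ± 0.16, Fkbp1a at -0.15 ± 0.07 and Trpc4ap, named for binding TRPC4, at 0.03 ± 0.06. Of 11 tested TRP channels of other subfamilies, 0 passed and 7 were below 0. Pkd1, polycystin 1, was at -0.44 ± 0.13, the channel-kinase gene Trpm7 at -0.19 ± 0.06, Trpm2 at -0.12 ± 0.08 and Mcoln1 at -0.08 ± 0.07. The groups of Pkd1 overlapped, with wild type replicate 2 at 71.2 CPM and duplication libraries at 67.3 to 71.6 CPM.

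Partners of the calcium sensors were mostly below 0. Of 14 tested, 0 passed, 3 were above 0 and 11 below, with a median of -0.06. The potassium channel gene Kcnq3 was at -0.43 ± 0.20 (SE), Ap2b1, a clathrin adaptor subunit, at -0.08 ± 0.07 and Dlg4, which encodes PSD-95, at -0.12 ± 0.07. The groups of Kcnq3 overlapped, with wild type replicate 2 at 177 CPM and duplication libraries at 153 to 213 CPM.

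Other EF-hand proteins leaned the other way: of 16 tested, 0 passed, 13 were above 0 and 3 below, with a median of 0.13, and 5 were higher and 1 lower without overlap, against 11.7% and 10.5% of all genes tested. The calmodulin genes Calm2 and Calm3 were at 0.26 ± 0.08 and 0.14 ± 0.07 (SE), and Caln1, calneuron 1, at -0.22 ± 0.08. Wild type libraries held Calm2 at 1441 to 1728 CPM and duplication libraries at 1786 to 1937 CPM.

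Several marker lists leaned up or down in the duplication group, some with sums that overlapped, and their part in the values above was not tested. Nuclear long noncoding RNAs, Malat1 and Meg3 among them, were below 0 in 8 of 8, of which 7 did not overlap, against 10.5% of all genes lower without overlap. They summed to 8090.3 to 10619.7 CPM in wild type libraries and 6240.4 to 7262 CPM in duplication libraries. The 292 tested transcripts of the annotation classes TEC and sense intronic were taken by class alone, and their splicing was not checked. On the log2 scale around each gene's mean, they had medians of 0.462, 0.011 and 0.515 in the wild type libraries. In the duplication libraries the medians were -0.431, -0.405 and -0.115. Wild type replicate 2 was the wild type library nearest the duplication group in both lists and was also the lowest library for Trpc4.

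Markers of meningeal and perivascular fibroblasts were above 0 in 10 of 10 and summed to 24.9 to 36.0 CPM in wild type libraries and 35.8 to 73.6 CPM in duplication libraries. None was at 0, and duplication replicate 1 was the highest, as it was for Trpc6. Among wild type libraries replicate 3 was the highest for these markers and replicate 1 for Trpc6. Pericyte and smooth muscle markers were above 0 in 7 of 7, with sums of 159 to 174 CPM and 171 to 202 CPM. These sums overlapped, as did the meningeal ones. Astrocyte and microglia markers were above 0 in 6 of 6 each, with medians of 0.13 and 0.08. Slc1a2, the most abundant astrocyte marker, was at 0.0006. The astrocyte sums overlapped, at 3201 to 3305 CPM in wild type and 3202 to 3429 CPM in duplication libraries. The microglia sums did not, at 212 to 240.4 CPM and 241 to 249 CPM. Neuron markers were above 0 in 1 of 6, Snap25 at 0.17 ± 0.06 (SE), and below 0 in 5. The genes listed as deep layer markers were below 0 in 6 of 6, though Rorb among them is not specific to deep layers. Oligodendrocyte markers were below 0 in 6 of 6. The groups overlapped for every one of these 12 genes. The deep layer sums were 360.3 to 446 CPM in wild type and 291 to 360.0 CPM in duplication libraries. Superficial layer markers were above 0 in 4 of 6, and their sums overlapped, at 492 to 637 CPM in wild type and 557 to 610 CPM in duplication libraries. The oligodendrocyte sums overlapped, at 1329.9 to 2290.3 CPM and 1191 to 1604 CPM.

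**Figure D4:**
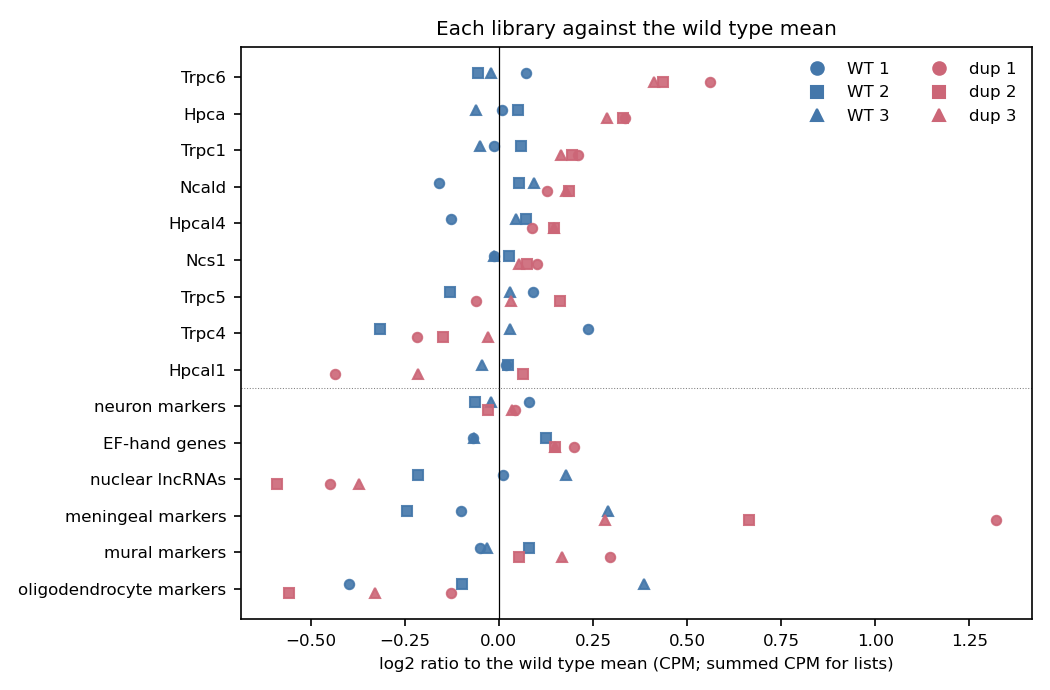
Log2 ratio of each library to the wild type mean, for the CPM of the 9 genes (above the dotted line) and for the summed CPM of gene lists (below it), wild type in blue and duplication in red, with shapes for replicates 1 to 3. The duplication libraries of Trpc6 lie at 0.412 to 0.562 and those of Hpca at 0.286 to 0.334, while meningeal markers run from 0.281 to 1.321 and nuclear noncoding RNAs from -0.59 to -0.371.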

How the data were processed

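Whole-transcriptome libraries (TruSeq stranded total RNA with Ribo-Zero, per the labels' protocols) were compared between 3 wild type and 3 duplication samples. The deposited values are raw read counts for each gene, not normalized by the authors. For the upstream steps, cutadapt, TopHat2, HTSeq and build mm10 are named in the submitters' processing notes, without versions. The annotation and strand setting were not given in the sources used here.

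Gene names had slipped against counts. There are 45807 count lines but 45801 names, 25 of them turned into numbers, and the distance from name to count grows from 0 to 6 in 6 steps, whose positions were given with the choice of genes. Names were moved by these offsets, and names within 25 lines of a step or turned into numbers were left unnamed, which left out 0.909% to 0.954% of the counts of a library. In 6 of 7 segments this offset gave the highest correlation of counts with the protein-coding class of the name, and the other segment held 7 usable names, all at 0 counts, and gave no value. The same offset was best in the 301 lines around each of the 9 genes. As deposited, Trpc6 sat beside 414 counts summed over wild type libraries and had 1777 after the move. Hpca had 1617 and 12344, and Hpcal4 1 and 60523. Only Hpcal1 and Ncald were unmoved.

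Counts were fitted with edgeR 4.0.16 in R 4.3.3 (TMM factors, filterByExpr, quasi-likelihood F-test, Benjamini-Hochberg over all 15398 genes, threshold 0.05). DESeq2 1.42.0 and limma 3.58.1 (voom) were alternatives. CPM uses TMM-scaled library sizes and log2 CPM a prior count of 2. No 2 libraries of a group agreed within sampling noise (chi-square per gene 2.69 to 15.6). Counts of the 9 genes in a library were 280 or more. Counting error is largest for Trpc4 and Hpcal1, which had the fewest counts. For Hpcal1 in wild type libraries (298, 341 and 309 counts) it exceeds the printed spread of 0.61 CPM, so that SD understates the uncertainty. Without molecular identifiers PCR copies are not separate molecules. Named genes outside the 9 were chosen as all measured members of the remaining family lists, the 4 most abundant of each other list, and the 5 closest in pattern to Trpc6 and Hpca; Snap25, Malat1, Meg3 and the hippocampal genes were named as markers, Spink8 after its values were seen, and Mapk3 as a label check. Some genes that this rule selects are not reported here. One listed partner, Ric8a, was not found by name. The genes and lists were chosen with earlier results of these data known. Coding sequences were aligned with Biopython 1.88.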

Additional observations from a re-analysis of the deposited data

How the results depend on the processing

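Over all genes, edgeR called 0 higher and 0 lower, with 1086 and 1877 at an unadjusted p under 0.05. With every counted gene kept, it called 173 and 843. Without both libraries numbered 2 it called 230 and 1090, and a replicate block gave 6 and 1. DESeq2 called 46 and 215, and limma-voom 0 and 0. Leaving out 1 library at a time gave 0 to 730 higher and 0 to 1676 lower, the highest without wild type replicate 2, which also gave the single called relative, Trpc1 (range 0 to 1). Relatives higher at an unadjusted p under 0.05 were 2 of 7 with all libraries, 1 with DESeq2, with its size factors in edgeR, with the stricter filter, without both libraries numbered 2, with names as deposited or with names within 100 lines of a step unnamed, 3 with upper-quartile factors or no filter, and 1 to 3 leaving out 1 library. With names as deposited only Hpcal1 and Ncald of the relatives were tested under their own counts, 1 was higher without overlap and the median was -0.0119. Leaving out 1 library, Trpc4 ran from -0.269 to 0.0037 (the latter without wild type replicate 1), Trpc5 from -0.0184 (without wild type replicate 2) to 0.101, Hpcal4 from 0.0682 (without wild type replicate 1) to 0.162 and Ncald from 0.0907 (likewise) to 0.212. The unadjusted edgeR p of Ncald was 0.133 without wild type replicate 1 and 0.0642 to 0.123 without 1 duplication library. Trpc5 was also below 0 without duplication replicate 2, at -0.0124, and when both libraries numbered 2 were dropped, at -0.0734. Over the 17 alternatives that moved the names, Trpc6 ran from 0.426 to 0.511, Hpca from 0.286 to 0.342 and Hpcal1 from -0.322 to -0.0676. Deviations of same-numbered libraries correlated at 0.102, 0.0629 and 0.311, and those of differently numbered libraries at -0.282 to 0.157. The labels give no pairs, so the main fit took none, and these values do not settle whether the numbers are pairs. The replicate block called 0 relatives. With sex as a term Trpc1 stayed at 0.189. That term counted both libraries numbered 2 as female despite their Y-linked counts, and its males were the libraries numbered 1. Males were thus 1 library per group, too few for a test within sex. The cause of these changes was not tested.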
